A study of Mus musculus with 69 samples.

Results

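The pituitary of older female mice with 1 altered Zeb1 allele (200H) was compared with that of mice in which both alleles were altered (200M), to measure the effect of the second altered allele across all genes. The comparison uses 7 of the 69 libraries of the series, 4 of 200H and 3 of 200M, chosen by their labelled tissue, cohort and genotype. All of the mice were females on the C57BL/6J background, 28 to 36 weeks old, used for breeding and then collected at proestrus. Breeding was prolonged for all 200M females but not for all mice of the other genotypes, so its length goes with genotype in part and cannot be told apart from it here. Most 200M females of the breeding trial bore no litter, while 200H females were fertile. Litter history therefore also goes with genotype and cannot be told apart from it. The altered allele is a knock-in with point mutations in the predicted miR-200a and miR-200b sites of the Zeb1 3′ UTR, so 200H mice keep 1 normal allele and 200M mice keep none. The cohort was bred from lines of both ES cell clones and their intercross, and which line each library came from was not used here. The altered allele is carried in every cell, so the pituitary is read in animals whose other tissues also carry it. In 4 older WT pituitaries, which have no altered allele, the same genes were measured and their values are given beside the results. Of 49585 genes in the table, 19745 had no count in any of the 7 libraries and 14862 passed the filter on low counts.

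ZEB1 is a transcription repressor that binds E-box motifs and silences epithelial genes. The microRNAs of the miR-200 family lower ZEB1, and ZEB1 represses the genes of these microRNAs, so that each side holds down the other. The pituitary is an epithelial endocrine organ in which separate cell types make each hormone, among them lactotropes (prolactin), gonadotropes (LH and FSH), corticotropes and the melanotropes of the intermediate lobe (both POMC).

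The 5 mature microRNAs whose sites the knock-in removes fall into a pair of groups by their seed, bases 2 to 8, which is printed in capitals (RefSeq, GRCm38.p6). The first 3 share 1 seed and the last 2 share the other. They are shown because loss of pairing to these seeds is the only designed difference between the alleles.
mmu-miR-200b-3p: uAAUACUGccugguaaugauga
mmu-miR-200c-3p: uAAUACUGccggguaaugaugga
mmu-miR-429-3p: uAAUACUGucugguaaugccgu
mmu-miR-200a-3p: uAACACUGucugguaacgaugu
mmu-miR-141-3p: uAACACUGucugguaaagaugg

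Total counts per library were 4919587 to 8801136 in 200H and 4527753 to 7300922 in 200M. Levels are CPM, counts per 1000000 counts of a library, with TMM scaling over the 11 older pituitary libraries. No pair of libraries within a genotype was a copy of the other, since in all 9 pairs the chi-square of their counts, divided by its degrees of freedom, was 4.76 or higher. The pituitary markers Prl, Gh, Pomc, Tshb, Lhb, Fshb, Cga, Pou1f1 and Pitx1 were present in all 7 libraries. A pair of 200H libraries stood apart from the others of that genotype. In replicate 1 the posterior lobe pituicyte marker Scn7a was at 1.86 CPM against 45.9 to 49.7 CPM in the other 200H libraries, Nkx2-1 was at 0, and the intermediate lobe melanotrope genes summed to 4137 CPM against 9712 to 11402 CPM. In replicate 2 the 22 immediate early genes, which are switched on within minutes of a stimulus, summed to 724 CPM against 2723 to 3690 CPM in the other 200H libraries. This level lay within the ranges of WT (719 to 6565 CPM) and 200M (628 to 1685 CPM).

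Zeb1 (ENSMUSG00000024238, chr18:5591860-5775467) was higher in every 200M library than in every 200H library. It was at 73.5, 76.1, 75.3 and 70.2 CPM in 200H replicates 1 to 4 and at 91.6, 84.3 and 79.6 CPM in 200M replicates 1 to 3, with 54.9 to 62 CPM in WT. The log2 fold change of 200M against 200H was 0.21 (SE 0.08, adjusted p = 0.361), which did not pass the threshold of 0.05. Adjusted p-values here and below come from edgeR's quasi-likelihood test with Benjamini-Hochberg adjustment over all genes tested, unless DESeq2 is named. No leave-one-out fit called Zeb1, and the fold changes in those fits were 0.14 to 0.25. Against WT the log2 fold change was 0.33 in 200H (adjusted p = 0.0139) and 0.55 in 200M (adjusted p = 0.000833), and both comparisons share the WT libraries.

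Zeb2, the paralog of Zeb1, was at 9.71 to 14.2 CPM in 200H and 10.3 to 14.1 CPM in 200M (log2 fold change −0.10, SE 0.17, adjusted p = 0.889), and the groups overlapped. The host transcript of the miR-200b, miR-200a and miR-429 cluster, Gm13648, was at 1.4, 1.39, 0.396 and 1.38 CPM in 200H and 0.628, 1.42 and 0.409 CPM in 200M. These levels overlapped, and all lay below the WT range of 5.4 to 8.75 CPM. The log2 fold change of Gm13648 between 200M and 200H was −0.43 (SE 0.48, adjusted p = 0.812), and it was −1.18 to −0.15 with 1 library left out. The host transcript of the miR-200c and miR-141 cluster, Gm15884, lay at 0.396 to 0.931 CPM in 200H and 0.418 to 0.774 CPM in 200M and did not pass the filter, so it was not tested. It overlaps Phb2 on the opposite strand, and the older libraries carry no strand information.

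**Figure D1:**
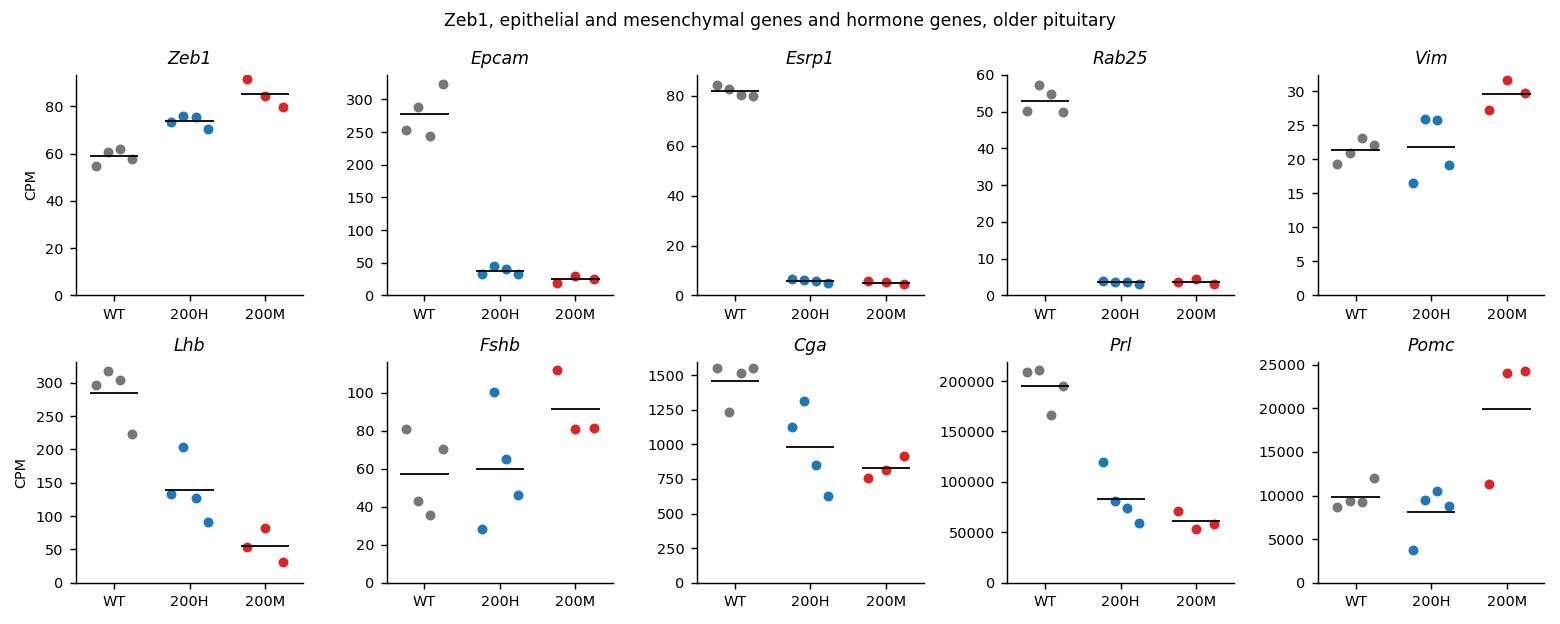
CPM (vertical axes, starting at 0) of 10 genes in WT (grey), 200H (blue) and 200M (red) older pituitary, with 1 point per library and a bar at the group mean. Zeb1 stepped up from WT at 54.9 to 62 CPM through 200H to 200M at 79.6 to 91.6 CPM, while Esrp1 and Rab25 were far below WT in both mutant groups.

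Between 200M and 200H, 18 of 14862 genes (0.121%) were called changed at an adjusted p under 0.05. Of these, 14 were higher in 200M (0.0942% of genes tested) and 4 were lower (0.0269%). In all 18 genes the 3 libraries of 200M and the 4 of 200H did not overlap, where over all genes 5.56% lay entirely above and 4.68% entirely below. These 18 were picked by p in these same libraries, so the lack of overlap is not added evidence. At an unadjusted p under 0.05 there were 843 higher (5.67%) and 732 lower genes (4.93%). DESeq2 called 125 of the 14797 genes to which it gave an adjusted p (0.845%), 79 of them higher (0.534%) and 46 lower (0.311%), and these included all 18. The calls depended on single libraries, as 6 of the 7 leave-one-out fits called 0 to 4 genes and the fit without 200H replicate 2 called 407. The 200M against WT comparison called 3153 of 14711 genes (21.4%), and 200H against WT called 1825 of 14922 (12.2%).

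Trank1, Gap43 and Vsnl1, of which Gap43 and Vsnl1 are known from neurons, were higher in 200M than in 200H by log2 fold changes of 1.03 to 1.33. Trank1 (ENSMUSG00000062296, chr9:111311739-111395775), which encodes an ankyrin repeat protein, had the smallest p. It was at 11.1, 12.8, 15.3 and 17 CPM in 200H and 29.1, 38.1 and 37.4 CPM in 200M, with 1 to 2.19 CPM in WT, and its log2 fold change between 200M and 200H was 1.33 (SE 0.15, adjusted p = 0.0178). Its 3 groups did not overlap, and 5 of 7 leave-one-out fits called it. Gap43 (ENSMUSG00000047261, chr16:42248442-42340651), a growth cone protein, was at 5.23, 5.97, 5.15 and 6.57 CPM in 200H and 9.42, 18.7 and 13.9 CPM in 200M, against 0.876 to 1.66 CPM in WT (log2 fold change 1.30, SE 0.22, adjusted p = 0.0457). Vsnl1 (ENSMUSG00000054459, chr12:11325242-11436613), a neuronal calcium sensor, was at 8.49, 5.76, 6.93 and 6.89 CPM in 200H and 14, 15.6 and 13.1 CPM in 200M, against 0.414 to 0.788 CPM in WT (log2 fold change 1.03, SE 0.16, adjusted p = 0.0373). For these 3 genes each added altered allele went with a higher level and no library crossed into the neighbouring genotype. Gap43 and Vsnl1 were each called by 1 of 7 leave-one-out fits, the one without 200H replicate 2.

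Akr1cl, Bend6, Gda and Nrip3 showed the same order without overlap. Akr1cl (ENSMUSG00000025955, chr1:65012689-65032759), an aldo-keto reductase gene, was at 15.8, 13, 15.3 and 16.7 CPM in 200H and 23.9, 27.2 and 31.9 CPM in 200M, against 0.4 to 1.93 CPM in WT (log2 fold change 0.86, SE 0.13, adjusted p = 0.0373). It overlaps Gm8550 on the other strand. Bend6 (ENSMUSG00000042182, chr1:33852052-33907816), whose protein carries a BEN domain, was at 1.86, 1.92, 2.77 and 2.65 CPM in 200H and 5.86, 5.94 and 7.36 CPM in 200M (log2 fold change 1.48, SE 0.24, adjusted p = 0.0373). Gda (ENSMUSG00000058624, chr19:21391307-21473445), guanine deaminase, was at 6.05, 5.33, 6.34 and 5.83 CPM in 200H and 10.5, 13.9 and 13.1 CPM in 200M (log2 fold change 1.10, SE 0.16, adjusted p = 0.0353). Nrip3 (ENSMUSG00000034825, chr7:109758055-109782025) was at 15.6, 19.5, 16.8 and 21.6 CPM in 200H and 30.5, 34.6 and 39.7 CPM in 200M (log2 fold change 0.92, SE 0.14, adjusted p = 0.0353). In WT the last 3 lay at 0.525 to 1.1, 3.04 to 3.8 and 8.5 to 12.5 CPM. Over all genes tested, 208 (1.4%) stood in the order WT, 200H, 200M with no overlap between neighbouring groups and 85 (0.572%) in the reverse order.

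In Peg10, Vgf, Lgals1, Amph and Crisp1 the WT and 200H libraries overlapped. Peg10 (ENSMUSG00000092035, chr6:4747306-4760517), an imprinted gene derived from a retrotransposon, was at 134, 118, 170.2 and 232 CPM in 200H and 458, 403 and 379 CPM in 200M, with 79.4 to 150.4 CPM in WT. Its log2 fold change was 1.34 (SE 0.18, adjusted p = 0.0241) against 200H, and 200H against WT gave 0.54 (adjusted p = 0.126). Vgf (ENSMUSG00000037428, chr5:137026392-137033351), the precursor of neuroendocrine peptides stored in secretory granules, was at 48.6, 58, 105 and 87 CPM in 200H and 164, 207 and 191 CPM in 200M (log2 fold change 1.35, SE 0.2, adjusted p = 0.0353). Lgals1 (ENSMUSG00000068220, chr15:78926725-78930465), galectin-1, was at 14.4, 16.5, 13.1 and 14.5 CPM in 200H and 25.3, 26.2 and 34.8 CPM in 200M, and WT libraries held 11 to 21.7 CPM (log2 fold change 0.96, SE 0.14, adjusted p = 0.0353). Amph (ENSMUSG00000021314, chr13:18948205-19150921), amphiphysin of synaptic vesicle uptake, had the smallest change of the 14, from 78.8 to 88.6 CPM in 200H to 113 to 127 CPM in 200M (log2 fold change 0.50, SE 0.08, adjusted p = 0.0373). Crisp1 (ENSMUSG00000025431, chr17:40293758-40319207), a cysteine-rich secretory protein gene, was at 1.63, 4.9, 6.74 and 7.63 CPM in 200H and 13.6, 25.4 and 24.5 CPM in 200M (log2 fold change 2.05, SE 0.34, adjusted p = 0.0457). In WT it lay at 1.23 to 1.97 CPM, and it had the largest fold change of the called genes described here. In 200H against WT 7.09% of genes were called higher. Vgf (log2 fold change 1.03, adjusted p = 0.0288) and Crisp1 (1.78, adjusted p = 0.0154) were called higher there despite the overlap. Amph (0.23, adjusted p = 0.17) and Lgals1 (−0.23, adjusted p = 0.435) did not pass.

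The 4 lowered genes were Klhdc8b, Socs3, Nes and Polm. Klhdc8b (ENSMUSG00000032609, chr9:108447636-108461581), a kelch domain gene, was at 284, 197, 253 and 222 CPM in 200H and 126, 159.5 and 135 CPM in 200M (log2 fold change −0.76, SE 0.12, adjusted p = 0.0373). Against WT at 143 to 219 CPM it was raised in 200H (log2 fold change 0.47, adjusted p = 0.044), and 200M gave −0.29 (adjusted p = 0.147). It overlaps Ccdc71 on the other strand. Socs3 (ENSMUSG00000053113, chr11:117966079-117970047), an inhibitor of cytokine signalling, was at 29, 23.7, 39.2 and 26.3 CPM in 200H and 15.1, 13.8 and 12.7 CPM in 200M (log2 fold change −1.07, SE 0.17, adjusted p = 0.0373). Nes (ENSMUSG00000004891, chr3:87971078-87980451), the intermediate filament nestin of progenitors and vessel walls, was at 80.5, 74.3, 68.5 and 97.4 CPM in 200H and 51.5, 50.5 and 42.5 CPM in 200M (log2 fold change −0.74, SE 0.12, adjusted p = 0.0457). Polm (ENSMUSG00000020474, chr11:5827860-5838016), DNA polymerase mu, was at 53.5, 42, 46.6 and 48.9 CPM in 200H and 33.9, 29 and 26.6 CPM in 200M (log2 fold change −0.68, SE 0.11, adjusted p = 0.0457). In WT, Socs3 lay at 31.6 to 48.3 CPM, Nes at 63.7 to 184 CPM and Polm at 40 to 61.6 CPM. Socs3, Nes and Polm were also called lower in 200M against WT, which shares the 200M libraries and in which 9.77% of genes were called lower, at log2 fold changes of −1.40, −1.36 and −0.81 (adjusted p = 9.05e-05, 0.00383 and 0.00255). In 200H against WT, where 5.14% of genes were called lower, they gave −0.33, −0.64 and −0.14 and did not pass.

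**Figure D2:**
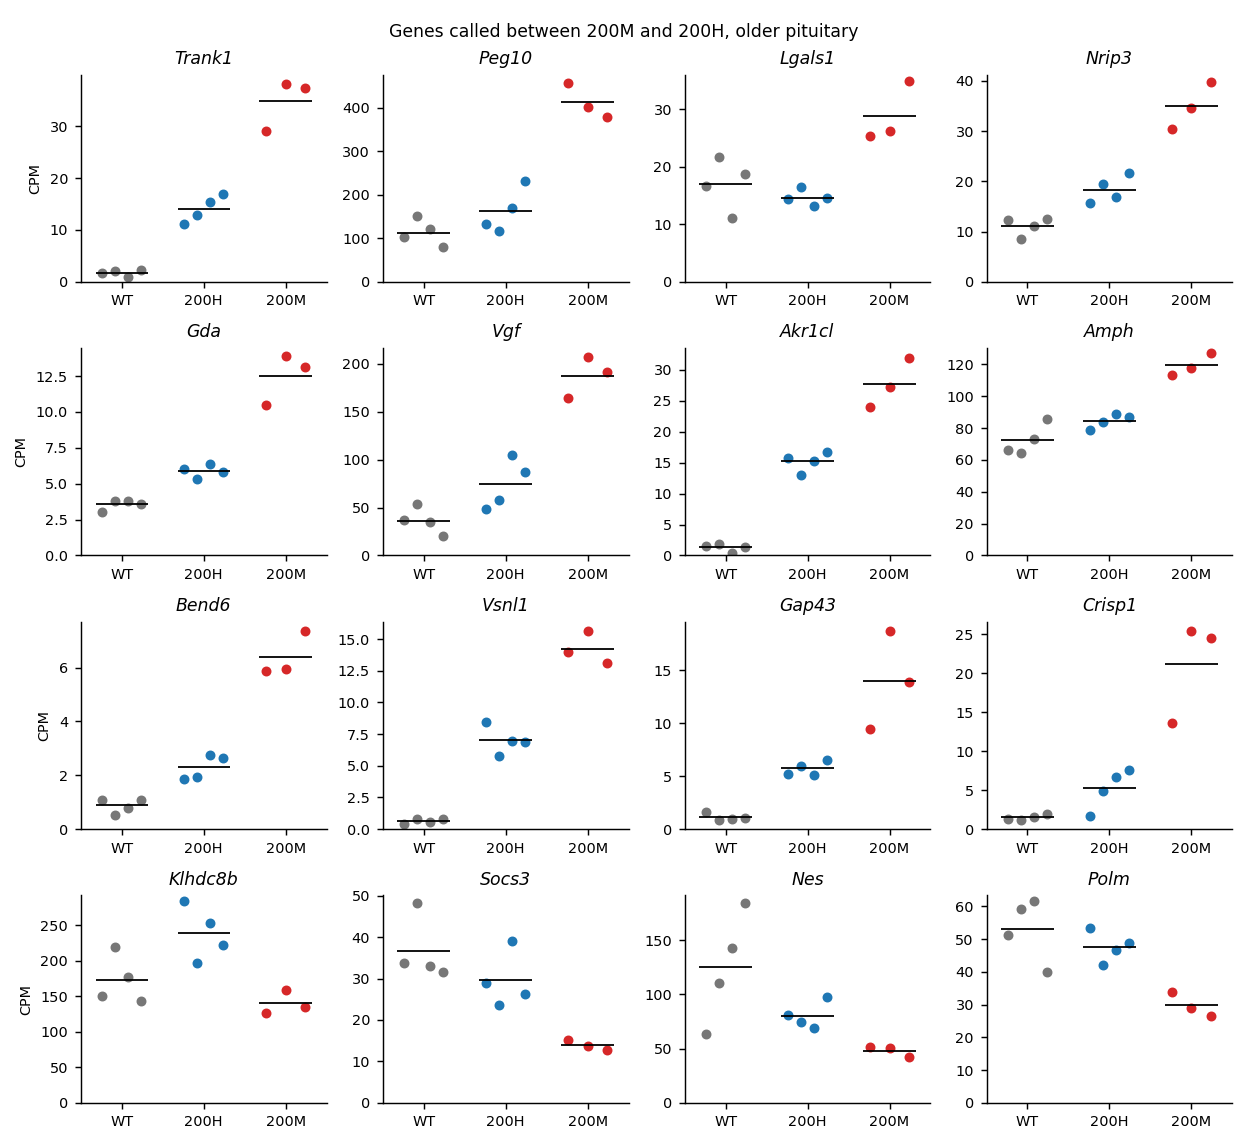
CPM (vertical axes, starting at 0) of 16 of the 18 called genes in WT (grey), 200H (blue) and 200M (red) older pituitary, with 1 point per library and a bar at the group mean. The genes were picked by p in these same 200M and 200H libraries, which do not overlap in any panel. In 7 of the 12 raised genes plotted the WT libraries lie below all 200H libraries as well.

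The young cohort, virgin females aged 8 to 12 weeks, shares no library with this comparison and has 4 libraries of each mutant genotype. All 14 raised genes had a log2 fold change above 0 between young 200M and young 200H, with values of 0.18 to 1 and a median of 0.62. Over the 18271 genes tested there, 49.3% lay above 0 and the median was −0.002. Of the 14, only Peg10 passed the threshold in the young cohort (611 to 763 CPM in 200H, 990.4 to 1138 CPM in 200M, log2 fold change 0.62, adjusted p = 0.0158), where 7 genes in all were called (0.0383%). Every young 200M library lay above every young 200H library for Peg10, as for 1.74% of all genes there. Trank1 gave 0.85 (adjusted p = 0.0637), Vgf 1.00 (adjusted p = 0.27) and Gap43 0.96 (adjusted p = 0.379). Among the 4 lowered genes 1, Socs3, was below 0 in the young cohort (−0.24, adjusted p = 0.982), and Klhdc8b, Nes and Polm gave 0.07, 0.27 and 0.11. 

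Whether the difference itself depends on the cohort was tested as an interaction over 15 libraries. edgeR called 0 of 18189 genes (0%), DESeq2 called 10, and 1116 genes (6.14%) had an unadjusted p under 0.05. The unadjusted interaction p was 5.01e-05 for Nes, 6.2e-05 for Polm and 0.000154 for Klhdc8b, and the adjusted p was 0.341 for all 3. The cohorts also differ in age, in breeding, in library preparation and in how reads were counted, and these cannot be told apart.

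The 10 genes next in order of p did not pass. They were Lbh, Ppp1r3c, Cabp7, Stat5a, Adcyap1r1, Gm15883, Hcar1, Egflam, Etv5 and Cd24a, at adjusted p = 0.0621 to 0.0644, and in all of them the groups did not overlap. They were picked by p in these same libraries, and over all genes 5.56% lay entirely above and 4.68% entirely below. DESeq2 called all 10, and so did edgeR without 200H replicate 2. Adcyap1r1, the receptor of the hypothalamic peptide PACAP, was at 56, 53.6, 53.5 and 57.8 CPM in 200H and 70.3, 82.1 and 73 CPM in 200M, with 20 to 25.1 CPM in WT (log2 fold change 0.45, SE 0.08, adjusted p = 0.0621). Stat5a, a transcription factor that acts downstream of prolactin and growth hormone receptors, was at 202, 138, 178 and 165 CPM in 200H and 98.3, 115 and 113 CPM in 200M (log2 fold change −0.65, SE 0.11, adjusted p = 0.0621) and was the only one of the 10 with a negative value. It overlaps Stat3 on the other strand. Cd24a was at 37.8 to 60.6 CPM in 200H and 70.7 to 116 CPM in 200M (log2 fold change 0.97, SE 0.18, adjusted p = 0.0644).

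Genes called in young 200M against young WT lay, by their median, on the same side of 0 between older 200M and 200H. Young 200M against young WT, which uses none of these 7 libraries, called 2093 of 18199 genes higher (11.5%) and 1820 lower (10%). Of the raised genes 1809 were tested here. Their median log2 fold change of 200M against 200H was 0.126, against −0.004 over all 14862 genes tested. In the list 1376 were above 0 and 433 below, where 49% of all genes tested lay above 0. Of the 14 genes called higher, 13 belonged to this list. Of the lowered genes 1531 were tested, with a median of −0.096, 418 above 0 and 1113 below, and 2 of the 4 genes called lower, Socs3 and Nes, belonged to it. In the genes raised over 2-fold in young 200M (359 tested) the median was 0.318, and in those lowered over 2-fold (279 tested) it was −0.259.

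The same lists were read library by library, as the median over the list of each gene's log2 level relative to its 200H mean. For the raised genes this was −0.046, 0.031, 0.008 and 0.038 in 200H replicates 1 to 4 and 0.098, 0.148 and 0.134 in 200M replicates 1 to 3. The WT libraries lay at −0.491, −0.420, −0.396 and −0.321. For the lowered genes it was 0.042, −0.080, 0.040 and 0.013 in 200H, −0.082, −0.075 and −0.116 in 200M and 0.317, 0.440, 0.327 and 0.218 in WT. All 200M libraries lay above all 200H libraries for the raised genes. For the lowered genes 200H replicate 2 lay within the 200M range, while for those lowered over 2-fold the groups did not overlap, at 0.036, −0.041, 0.077 and 0.016 in 200H and −0.214, −0.186 and −0.333 in 200M. The distance between WT and 200H was larger than that between 200H and 200M in each list. For the raised genes the median fold change of 200H against WT was 0.412 and that of 200M against WT was 0.544, and for the lowered genes these were −0.311 and −0.42.

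**Figure D3:**
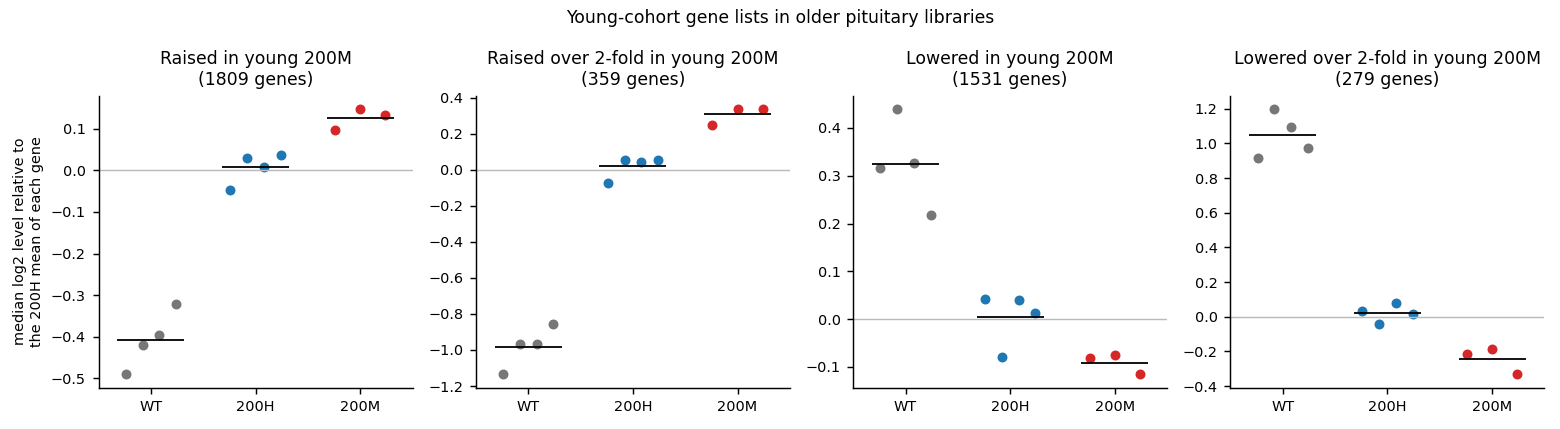
Median log2 level of 4 gene lists (vertical axes) in each older library of WT (grey), 200H (blue) and 200M (red), relative to each gene's mean over the 200H libraries (grey line at 0), with a bar at the group mean. The lists were taken from young 200M against young WT. The 200M libraries lie beyond the 200H libraries in the raised lists and in the list lowered over 2-fold.

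Of 42 epithelial genes, 31 were called lower in 200H against WT and 30 in 200M against WT, with 0 higher in either comparison, where 5.14% and 9.77% of all genes were called lower. Between the mutant groups 0 were called by edgeR or DESeq2. Of the 42, 2 were higher and 8 lower at an unadjusted p under 0.05, where 5.67% and 4.93% of all genes were. The median log2 fold change of 200M against 200H was −0.087. It was −0.029 without 200H replicate 2, where 2 were called higher and 1 lower, and −0.139 without 200H replicate 4. The fit without 200H replicate 2 called 1.2% of all genes higher and 1.64% lower. Against WT the median was −0.948 in 200H and −1.025 in 200M. The list includes Epcam, Esrp1 and Rab25, which were singled out in the study of these mice, so its direction against WT is not independent evidence. Esrp1, a splicing regulator of epithelia, was at 6.63, 6.18, 5.75 and 4.88 CPM in 200H and 5.65, 5.42 and 4.5 CPM in 200M, where WT libraries held 79.9 to 84.6 CPM (log2 fold change of 200M against 200H −0.17, SE 0.2, adjusted p = 0.819). Rab25, a small GTPase of epithelial membrane traffic, was at 3.96, 3.73, 3.76 and 3.07 CPM in 200H and 3.77, 4.52 and 3.07 CPM in 200M, with 49.8 to 57.4 CPM in WT (log2 fold change 0.09, SE 0.23, adjusted p = 0.933). For both genes the mutant groups overlapped.

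Epcam (ENSMUSG00000045394, chr17:87635979-87651129), an epithelial adhesion protein, differed from these. It was at 32.6, 45.4, 40.4 and 32.4 CPM in 200H and 19.5, 30.3 and 25 CPM in 200M, with 244 to 323 CPM in WT, and the mutant groups did not overlap. Its log2 fold change was −0.58 (SE 0.16, adjusted p = 0.181), which did not pass, and the young cohort gave −0.74 (adjusted p = 0.0158), which did, where 0.0219% of genes were called lower. Capn8, a calpain, was at 4.54, 1.6, 1.78 and 4.35 CPM in 200H and 1.26, 0.774 and 0.409 CPM in 200M, with 58.8 to 85.3 CPM in WT (log2 fold change −1.95, SE 0.52, adjusted p = 0.181). Spint1, a protease inhibitor of epithelia, was at 21.5 to 25.9 CPM in 200H and 14.9 to 20 CPM in 200M (log2 fold change −0.47, SE 0.13, adjusted p = 0.189). Dsp, desmoplakin, was at 21.3, 26.3, 24 and 27.1 CPM in 200H and 35.6, 32.5 and 37 CPM in 200M, where WT libraries held 33.2 to 40.3 CPM (log2 fold change 0.50, SE 0.12, adjusted p = 0.121). Cdh1, E-cadherin, was at 10.2 to 11.9 CPM in 200H and 11.5 to 12.8 CPM in 200M (log2 fold change 0.15, SE 0.14, adjusted p = 0.752) and at 11.9 to 14.6 CPM in WT, from which neither mutant group passed the test (log2 fold change −0.21 in 200H, adjusted p = 0.338, and −0.05 in 200M, adjusted p = 0.836).

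Of 33 mesenchymal genes 0 were called by edgeR and 1 was called higher by DESeq2, which called 0.534% of all genes higher. At an unadjusted p under 0.05 there were 11 higher and 2 lower, beside 5.67% and 4.93% of all genes. The median log2 fold change of the 33 was 0.193. This median was 0.057 without 200M replicate 1, and 0.104 and 0.107 without 200H replicate 1 or 2. Vim, vimentin, was at 16.5, 26, 25.8 and 19.2 CPM in 200H and 27.2, 31.7 and 29.7 CPM in 200M (log2 fold change 0.45, SE 0.16, adjusted p = 0.302), with 19.3 to 23.2 CPM in WT. Dcn, the matrix proteoglycan decorin, was at 51, 82.7, 69.1 and 61.7 CPM in 200H and 97.9, 101 and 98 CPM in 200M (log2 fold change 0.58, SE 0.13, adjusted p = 0.116). The summed level of 12 fibroblast and mural cell genes was 669 to 795 CPM in 200H and 709 to 893 CPM in 200M, which overlap. The part of fibroblast content in the mesenchymal values was not tested.

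Lhb, Epcam and Rab25 each hold 2 copies, and Gda, Pomc and Greb1 1 copy each, of the E-box that ZEB1 binds (CACCTG, or CAGGTG as the same motif on the other strand) in the RefSeq promoter window from 250 bases before to 50 bases after the start. They are shown because they cover each kind of value seen here, with Lhb and Epcam lower in every 200M library than in every 200H library, Rab25 overlapping between the groups, Gda called higher, Pomc higher in every 200M library, and Greb1 overlapping. The motif is in capitals, within 24 bases of GRCm38.p6 read in the direction of the gene. The start is that of RefSeq, which for Lhb, Rab25 and Gda lies inside the gene span given by GENCODE. The study of these mice gives the ZEB1 site as CAGGTR, with A or G as its last base. Only the form ending in G was searched, so all counts of the motif here are for that form.
Lhb, 188 bases before the start, chr7:45420749-45420772, plus strand: aagccctgaCACCTGggccgagtg
Lhb, 23 bases before the start, chr7:45420914-45420937, plus strand: gtataaagcCAGGTGcccaaggta
Epcam, 187 bases before the start, chr17:87635783-87635806, plus strand: agtagggccCACCTGctggaggac
Epcam, 19 bases before the start, chr17:87635951-87635974, plus strand: cataaaaccCAGGTGtggaggaga
Rab25, 64 bases before the start, chr3:88548329-88548352, minus strand: cgctccaccCACCTGtgccccagg
Rab25, 53 bases before the start, chr3:88548318-88548341, minus strand: cctgtgcccCAGGTGcccagcgga
Gda, 249 bases before the start, chr19:21472888-21472911, minus strand: tCACCTGtcaccacgtttatgcaa
Pomc, 200 bases before the start, chr12:3954736-3954759, plus strand: caccagcgcCAGGTGtgcgcttca
Greb1, 42 bases after the start, chr12:16800837-16800860, minus strand: caatctcctgtgcctaCACCTGga
The motif stands in 20.2% of all 32851 promoter windows and in 21.7% of the tested genes that have one. Of the 18 called genes 11 had a window and 1 held the motif, Gda, which was raised. The 2413 tested genes with the motif had a median log2 fold change of −0.004, the same as all genes tested, with 1 called higher and 0 lower.

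Among the hormone genes 0 were called by edgeR or DESeq2, 1 was higher and 2 were lower at an unadjusted p under 0.05, where 5.67% and 4.93% of all genes were. In 1 of 7 the 200M libraries lay entirely above and in 1 entirely below, where 5.56% and 4.68% of all genes did. Lhb, which encodes the beta chain of luteinizing hormone (ENSMUSG00000100916, chr7:45420820-45421897), was at 133, 203, 127 and 90.7 CPM in 200H and 54.2, 82.1 and 30.7 CPM in 200M, with 223 to 317 CPM in WT. Its log2 fold change between 200M and 200H was −1.30 (SE 0.29, adjusted p = 0.112). Without 200H replicate 2 it was −1.03 and passed (adjusted p = 0.0366), and the young cohort gave −0.81 (adjusted p = 0.0637). It overlaps Ruvbl2 on the other strand. Pomc (ENSMUSG00000020660, chr12:3954951-3960642), the precursor of ACTH and melanocyte-stimulating hormone, was at 3763, 9537, 10479 and 8853 CPM in 200H and 11326, 23993 and 24297 CPM in 200M, with 8725 to 12055 CPM in WT. Its log2 fold change was 1.28 (SE 0.31, adjusted p = 0.133), and it was 1.04 without 200H replicate 1 (adjusted p = 0.128) and 1.37 without 200H replicate 2 (adjusted p = 0.0409), which passed. The young cohort gave 0.07 (adjusted p = 0.99), and the interaction with cohort had an unadjusted p of 0.00246 (adjusted p = 0.556). In bulk tissue fewer cells of a type and less RNA per cell cannot be told apart.

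Fshb, the beta subunit of FSH, was at 28.5, 100.3, 65.2 and 46.2 CPM in 200H and 112, 80.9 and 81.4 CPM in 200M (log2 fold change 0.61, SE 0.31, adjusted p = 0.521), and the groups overlapped. Without 200H replicate 2 its value was 1.01 (adjusted p = 0.0292). Cga, the alpha subunit of both gonadotropins and of TSH, was at 1122, 1314, 850.3 and 627 CPM in 200H and 754, 817 and 916 CPM in 200M (log2 fold change −0.24, SE 0.19, adjusted p = 0.72). Gnrhr, the gonadotrope receptor of GnRH, was at 70.5 to 100.4 CPM in 200H and 66.3 to 88.5 CPM in 200M (log2 fold change −0.12, SE 0.13, adjusted p = 0.795). Of 21 gonadotrope genes tested 0 were called by edgeR and 1 was called higher by DESeq2, which called 0.534% of all genes higher. At an unadjusted p under 0.05 there were 2 higher and 3 lower, beside 5.67% and 4.93% of all genes. The median of the 21 genes was −0.05 (−0.148 to −0.022 with 1 library left out). The summed level of the gonadotrope list was 4844 to 5543 CPM in 200H and 4863 to 5594 CPM in 200M.

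Prl, prolactin, was at 119782, 81141, 74332 and 58797 CPM in 200H and 71319, 53417 and 58363 CPM in 200M, with 166617 to 211144 CPM in WT (log2 fold change −0.45, SE 0.2, adjusted p = 0.458). The highest 200H value was that of replicate 1, and without it the log2 fold change was −0.23 (adjusted p = 0.77). Gh, growth hormone, was at 82631 to 119164 CPM in 200H and 84752 to 124279.6 CPM in 200M (log2 fold change 0.04, SE 0.15, adjusted p = 0.959). Tshb was at 228, 249, 128 and 96.6 CPM in 200H and 211, 214 and 262 CPM in 200M (log2 fold change 0.39, SE 0.26, adjusted p = 0.641). These 3 overlapped between the genotypes.

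Markers of the intermediate lobe differed between libraries of each genotype and, in part, between the genotypes. The 10 melanotrope genes summed to 4137, 10302, 11402 and 9712 CPM in 200H replicates 1 to 4 and 12197, 25514 and 25723 CPM in 200M replicates 1 to 3, with 9499 to 13112 CPM in WT, and Pomc makes up most of this sum. Their median log2 fold change was 0.509, with 0 called by edgeR or DESeq2, and without 200H replicate 1 the median was 0.293. At an unadjusted p under 0.05 there were 5 of 10 higher, beside 5.67% of all genes. Pcsk2, the prohormone convertase that melanotropes use, was at 113, 223, 279 and 259 CPM in 200H and 295, 505 and 472 CPM in 200M (log2 fold change 0.96, SE 0.25, adjusted p = 0.164). Pax7, the transcription factor of melanotropes, was at 15.6, 46.4, 66.4 and 63.7 CPM in 200H and 48.5, 81.8 and 72.6 CPM in 200M, and Oacyl at 62.5, 211, 217 and 206 CPM and 202, 507 and 452 CPM. With the log2 of the melanotrope sum as a covariate, added after the data were seen, edgeR called 0 genes and 633 had an unadjusted p under 0.05. This sum did not overlap between the genotypes and is mostly Pomc, so that fit cannot tell the melanotrope level from the genotype.

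**Figure D4:**
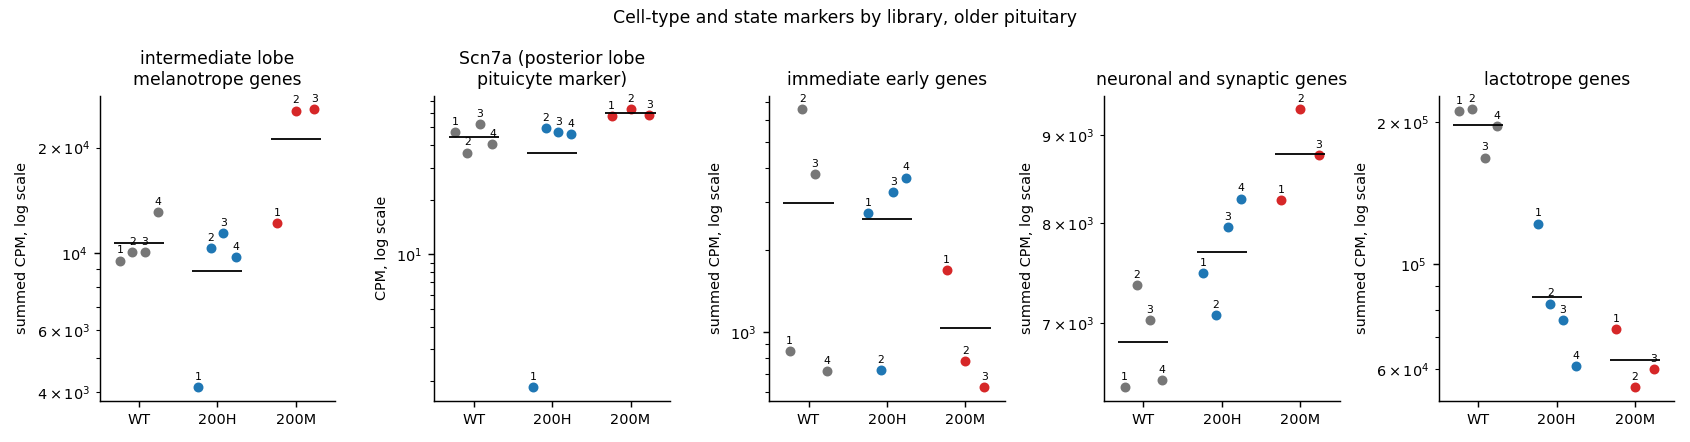
Summed CPM of 4 gene lists and CPM of Scn7a (vertical axes, log scale) in WT (grey), 200H (blue) and 200M (red) older pituitary, with 1 numbered point per replicate and a bar at the arithmetic mean. 200H replicate 1 is lowest for melanotrope genes (4137 CPM) and Scn7a (1.86 CPM), and 200H replicate 2 is lowest of its group for immediate early genes (724 CPM).

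Of 65 neuronal and synaptic genes 3 were called higher (Trank1, Vgf and Gap43) and 0 lower, beside 0.0942% and 0.0269% of all genes tested. The list, Trank1 included, was chosen with earlier results of these data known, so its counts are not independent evidence. The median log2 fold change was 0.161 and 54 of 65 were above 0, where 49% of all genes tested were. At an unadjusted p under 0.05 there were 27 higher and 2 lower, beside 5.67% and 4.93% of all genes. With 1 library left out the median was 0.129 to 0.214. The list summed to 7481, 7072, 7957 and 8266 CPM in 200H and 8252, 9314 and 8766 CPM in 200M, and the groups overlapped only between 200H replicate 4 and 200M replicate 1. Its median was 0.345 in 200H against WT and 0.585 in 200M against WT. The part of posterior lobe tissue in these values was not tested. The 9 pituicyte genes summed to 243 to 380.4 CPM in 200H and 317 to 348 CPM in 200M. Neuropeptide genes of the hypothalamus, among them Avp and Oxt, whose neurons send axons to the posterior lobe, summed to 4.3, 14, 11.5 and 7.84 CPM in 200H and 13, 14.5 and 17.8 CPM in 200M. Rest, the repressor of neuronal genes, was at 5.47 to 9.7 CPM in 200H and 7.32 to 8 CPM in 200M (log2 fold change 0.02, SE 0.21, adjusted p = 0.985).

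Of 24 genes of secretory granules and prohormone processing 1 was called higher (Vgf), beside 0.0942% of all genes. At an unadjusted p under 0.05 there were 10 higher and 1 lower, beside 5.67% and 4.93% of all genes, and the median was 0.113. Chga, the granule protein chromogranin A, was at 464, 643, 753 and 761 CPM in 200H and 870.2, 1215 and 1204 CPM in 200M (log2 fold change 0.74, SE 0.16, adjusted p = 0.105). Slc18a2, the vesicular monoamine transporter, was at 15.8, 11.9, 12.7 and 21.2 CPM in 200H and 55.9, 23.5 and 34.4 CPM in 200M, with 3.6 to 10.1 CPM in WT (log2 fold change 1.26, SE 0.27, adjusted p = 0.0957). Pcsk1, a prohormone convertase, was at 112, 135, 113 and 121 CPM in 200H and 157, 160.2 and 149 CPM in 200M (log2 fold change 0.37, SE 0.08, adjusted p = 0.119). In all 3, which were picked by p, the 200M libraries lay entirely above those of 200H, where 5.56% of all genes did. Chga and the melanotrope genes were lowest in 200H replicate 1, and the part of the intermediate lobe in the granule values was not tested.

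Immediate early genes had the median farthest from 0 of the lists, and their levels varied widely within each genotype. Of 22 genes 0 were called by edgeR and 3 were called lower by DESeq2, which called 0.311% of all genes lower. Of the 22, 20 lay below 0, where 49% of all genes tested lay above 0. At an unadjusted p under 0.05 there were 8 lower, beside 4.93% of all genes. The median log2 fold change of the 22 genes was −0.862, and it was −0.501 without 200H replicate 4 and −0.568 without 200M replicate 3. Their summed level was 2723, 724, 3267 and 3690 CPM in 200H and 1685, 780.1 and 628 CPM in 200M, and in WT it ranged from 719 to 6565 CPM. Fos, the first of them by p, was at 163, 11.1, 254 and 169 CPM in 200H and 12.8, 7.1 and 5.93 CPM in 200M, with 5.8, 188, 27 and 12.8 CPM in WT (log2 fold change −4.13, SE 0.8, adjusted p = 0.0715). Egr1, which activates Lhb in gonadotropes, was at 491, 59.8, 703 and 636 CPM in 200H and 132, 36.9 and 31.7 CPM in 200M (log2 fold change −2.82, SE 0.69, adjusted p = 0.138). The groups overlapped for both, through 200H replicate 2. Ier2 was at 68.6, 19.4, 91.1 and 68.4 CPM in 200H and 16.9, 15.2 and 14.1 CPM in 200M (log2 fold change −1.98, SE 0.4, adjusted p = 0.0822), and Btg2 at 329.5, 75.6, 344 and 372 CPM and 119, 58.8 and 54.8 CPM (log2 fold change −1.85, SE 0.44, adjusted p = 0.133).

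Without 200H replicate 2, 407 of 14324 genes were called (2.84%), 172 higher (1.2%) and 235 lower (1.64%), and these included all 18 genes called with 7 libraries. The 5 raised genes of smallest p in that fit were Trank1, Peg10, Spp1, Ppp1r3c and Ngb, and the 5 lowered ones were Fos, Ier2, Adamts2, Aebp1 and Slco2a1. Also called there, and not with all 7 libraries, were Lhb, Pomc, Fshb, Chga, Slc18a2, Pcsk1, Dcn, Dsp, Capn8, Egr1, Btg2, Greb1, Pgr, Nrip1, Gal, Enc1, Akap6, Nptx1 and Rpl10a, whose values stand with their lists. Fos then gave −4.52 on the log2 scale (adjusted p = 7.99e-07) and Ier2 −2.29 (adjusted p = 2.68e-06). Slco2a1, a prostaglandin transporter, gave −0.89 (adjusted p = 0.000281) and was at 83.1, 53.3, 86.4 and 78 CPM in 200H and 42.7, 46.7 and 43 CPM in 200M. Aebp1, a matrix-associated carboxypeptidase-like protein, was at 1319, 457, 1186 and 1164 CPM in 200H, 572, 682 and 545 CPM in 200M and 678, 1185, 864 and 316 CPM in WT. Spp1, osteopontin, was at 38.5, 70.1, 45.4 and 54.9 CPM in 200H and 86.2, 90.6 and 119 CPM in 200M and gave 1.09 (adjusted p = 0.00219). In the young cohort 126 of the 170 raised genes tested there were above 0 and 131 of the 227 lowered ones were below 0, beside 49.3% above 0 over all genes.

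**Figure D5:**
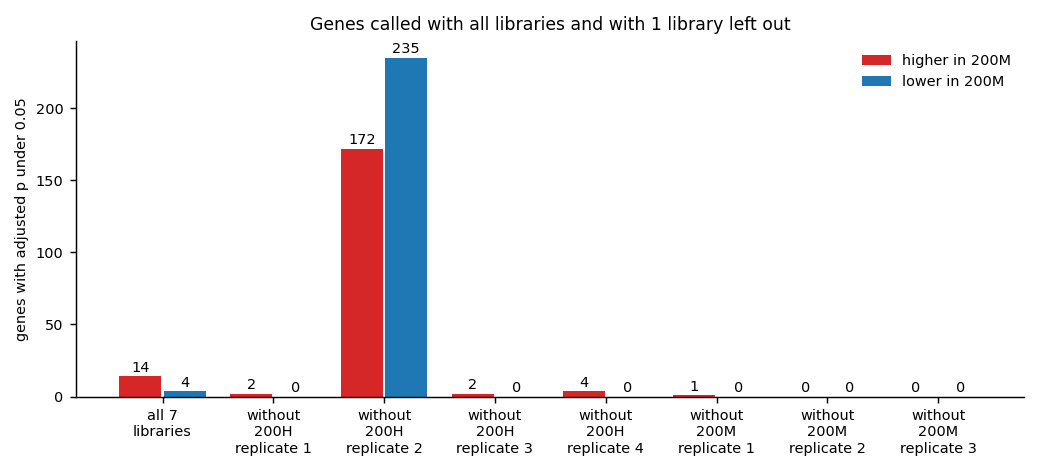
Number of genes called by edgeR at an adjusted p under 0.05 (vertical axis) with all 7 libraries and with each library left out in turn, as higher (red) or lower (blue) in 200M. Leaving out 200H replicate 2 gave 172 higher and 235 lower genes, and the other 6 fits gave 0 to 4 higher and 0 lower.

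Of 10 estrogen responsive genes 0 were called by edgeR and 5 were lower at an unadjusted p under 0.05, where 4.93% of all genes were. The median was −0.19. Without 200H replicate 2 the median was −0.395 and 4 of the 10 were called lower, beside 1.64% of all genes in that fit. Greb1, a cofactor of the estrogen receptor, was at 602, 387, 549 and 614 CPM in 200H and 343, 418 and 349 CPM in 200M (log2 fold change −0.54, SE 0.14, adjusted p = 0.162), and DESeq2 called it (adjusted p = 0.0133). Pgr, the progesterone receptor, was at 107, 66.3, 99.5 and 115 CPM in 200H and 65.7, 82.5 and 57.7 CPM in 200M (log2 fold change −0.48, SE 0.17, adjusted p = 0.295). Nrip1 was at 84, 71.5, 81.6 and 88.6 CPM in 200H and 62.4, 69.8 and 60.1 CPM in 200M (log2 fold change −0.34, SE 0.09, adjusted p = 0.181). Gal, the peptide galanin of lactotropes, was at 733, 251, 644 and 513 CPM in 200H and 402, 316 and 345 CPM in 200M, with 75 to 249 CPM in WT (log2 fold change −0.59, SE 0.26, adjusted p = 0.445). Greb1, Pgr, Nrip1 and Gal were lowest of their 200H group in replicate 2, the library of low immediate early genes.

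Of 78 cytosolic ribosomal protein genes 0 were called by edgeR or DESeq2 and 69 lay below 0, where 49% of all genes tested lay above 0. At an unadjusted p under 0.05 there were 9 lower, beside 4.93% of all genes, and the median was −0.153. Without 200H replicate 1 the median was −0.079. Read by library, this list lay at 0.239, −0.080, 0.039 and −0.196 in 200H and −0.175, −0.147 and −0.160 in 200M relative to the 200H mean, so that 200H replicate 4 lay below all 200M libraries. Rpl10a, a subunit gene, was at 35.2, 24.7, 28.9 and 32.4 CPM in 200H and 22.6, 23.9 and 21.1 CPM in 200M (log2 fold change −0.42, SE 0.13, adjusted p = 0.233). Many ribosomal protein genes have processed pseudogenes, so their counts are uncertain.

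Genes with a perfect 8mer site in the annotated 3′ UTR, Zeb1 left out, had medians slightly above that of all genes tested. For miR-200b sites 564 genes were tested, with a median log2 fold change of 0.029, 337 above 0, 49 higher and 21 lower at an unadjusted p under 0.05, and 0 called by edgeR and 2 by DESeq2. For miR-200a sites 696 were tested, with a median of 0.032, 403 above 0, 60 higher and 23 lower at that p, and 1 called, Peg10, while DESeq2 called 6 higher and 2 lower. These medians were 0.019 to 0.046 and 0.016 to 0.045 with 1 library left out. Of all genes tested 49% lay above 0, 5.67% were higher and 4.93% lower at an unadjusted p under 0.05, and 0.0942% were called higher. DESeq2 called 0.534% of all genes higher and 0.311% lower. Enc1, an actin-binding kelch protein with a miR-200a site, was at 36.4, 50.1, 53.3 and 66 CPM in 200H and 77.8, 90.7 and 92.9 CPM in 200M (log2 fold change 0.76, SE 0.15, adjusted p = 0.0852), and DESeq2 called it (adjusted p = 0.000898). Akap6, an anchoring protein of protein kinase A, was at 46.2, 45.1, 41.8 and 50.8 CPM in 200H and 60.7, 61.3 and 64 CPM in 200M, with 6.48 to 13.8 CPM in WT (log2 fold change 0.43, SE 0.09, adjusted p = 0.0898), and DESeq2 called it (adjusted p = 0.03). Nptx1, a neuronal pentraxin with a miR-200b site, was at 29.8, 66.3, 34.3 and 57.5 CPM in 200H and 87, 84 and 102 CPM in 200M (log2 fold change 0.94, SE 0.22, adjusted p = 0.131).

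The other lists held 0 genes called by edgeR, and DESeq2 called 1 fibroblast gene higher, Greb1 of the lactotrope list lower and 0 in the rest. It called 0.534% of all genes higher and 0.311% lower. Over all genes 5.67% were higher and 4.93% lower at an unadjusted p under 0.05. At that p 5 of 15 stem cell genes and 3 of 12 fibroblast genes were higher and 4 of 11 lactotrope genes were lower. These 4, Greb1, Pgr, Gal and Prl, also belong to the estrogen responsive list, so the counts of these lists are not separate results. Each of the other lists held 0 to 2 in either direction. Most of their medians rested on single libraries, so each is given with its range when 1 library was left out. Medians of log2 fold change were −0.044 (−0.107 to −0.045) for 24 genes of the TGF-beta and activin pathway, 0.031 (−0.036 to 0.061) for 20 endoplasmic reticulum stress genes and −0.223 (−0.428 to −0.098) for 14 cell cycle genes. They were 0.178 (0.078 to 0.382) for 15 stem and folliculostellate cell genes, −0.106 (−0.203 to −0.025) for 12 endothelial genes, 0.06 (−0.032 to 0.228) for 12 fibroblast and mural genes, 0.09 (−0.21 to 0.217) for 10 immune cell genes and 0.454 (−0.048 to 0.859) for 5 red blood cell genes. The 11 lactotrope genes had −0.04 (−0.067 to −0.008), the 8 somatotrope genes −0.04 (−0.106 to 0.05), the 8 corticotrope genes 0.009 (−0.018 to 0.032) and the 6 thyrotrope genes 0.223 (0.112 to 0.289). The 9 pituicyte genes had 0.296 (0.092 to 0.559) and the 3 hypothalamic neuropeptide genes that were tested 0.759 (0.421 to 1.022), with both lowest values in the fit without 200H replicate 1, the library of low posterior lobe markers. The 7 hormone genes had 0.04 (−0.117 to 0.179). Tgfbr2, a TGF-beta receptor, was at 54.8 to 62.9 CPM in 200H and 64.9 to 77.6 CPM in 200M (log2 fold change 0.28, SE 0.09, adjusted p = 0.285), and Smad3, which carries its signal, at 80.4 to 84.9 CPM and 70.5 to 72.8 CPM (log2 fold change −0.19, SE 0.07, adjusted p = 0.368).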

How the data were processed

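Poly(A) RNA of single pituitaries was sequenced without strand information, and replicates are different mice. The authors aligned reads with STAR 2.7.1a to mm10 (GRCm38), assigned them to genes with HTSeq 0.9.1 without regard to strand, and deposited raw counts per gene and library. The deposited tables also hold the authors' DESeq2 fold changes and p-values, which were not used, nor were 30 columns of normalized values. The young libraries were stranded, depleted of ribosomal RNA and counted with featureCounts. Only 4 of the 18 deposited files were used.

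Genotype differences were fitted to the 200H and 200M counts in edgeR 4.0.16, under R 4.3.3 with limma 3.58.1, using filterByExpr, TMM scaling and the quasi-likelihood F test with genotype only, called at a Benjamini-Hochberg adjusted p under 0.05. SE denotes the log2 fold change divided by the root of its F value. The fits were also run on simulated counts, whose results are not given here. DESeq2 1.42.0, other scalings, filters, dispersions, a length correction, the replicate block and each library left out were alternatives. Depth was 4527753 to 8801136 counts, so genes under about 1 CPM rest on few counts. Levels are CPM, and library medians use log2 CPM with a prior count of 2. Symbols and coordinates are from GENCODE M21 (GRCm38).

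Named genes follow a rule: fixed genes of the ZEB1 loop and hormones, all called genes (2 of the 18 are counted but not reported here by name), the 10 next by p, up to 4 per list by p, and the 5 raised and 5 lowered of smallest p without 200H replicate 2. Members and lists were chosen with earlier results of these data known, so lists are described by counts and medians and not tested.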

Additional observations from a re-analysis of the deposited data

Results flagged for a closer look

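In 115 sets of 4 200H values (named genes, cell-type markers and summed lists), 6 held a library far from the other 3 by Dixon's 95% criterion on the gap over the range. The criterion gives 1 in 20 by chance for a single set. These sets share the same 4 libraries and many were picked by p, so the 6 cannot be judged against that rate. Scn7a, a posterior lobe pituicyte marker, was at 1.86 CPM in 200H replicate 1 and at 45.9, 47 and 49.7 CPM in the others. Oacyl, a melanotrope marker, was at 62.5 CPM in 200H replicate 1 and at 206 to 217 CPM in the others. Ngb was at 24.9 CPM in 200H replicate 2 and at 10.4 to 11.9 CPM in the others. Gm15883, which overlaps Cyp2f2 on the opposite strand, was at 2.13 CPM in 200H replicate 2 and at 1.05 to 1.19 CPM in the others. Gm13648, the host transcript of the miR-200b cluster, was at 0.396 CPM in 200H replicate 3 and at 1.38 to 1.4 CPM in the others. Trhr, the thyrotropin-releasing hormone receptor, was at 8.52 CPM in 200H replicate 3 and at 9.86 to 10.1 CPM in the others.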

How the results depend on the processing

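The count of 18 called genes was 18 with RLE scaling, 11 with the 3 genotypes in one fit, 10 at a mean count of at least 50, 35 with robust dispersions, 38 with the length correction and 125 with DESeq2. It was 549 with no filter on low counts, where edgeR's prior degrees of freedom came to Inf against 7.47, so that each gene's own spread was not used. With single libraries left out it ranged from 0 (without 200M replicate 2 or 3, where 1200 and 1129 genes had an unadjusted p under 0.05) to 407 (without 200H replicate 2). Settings added after the data were seen gave 300 genes without 200H replicates 1 and 2, 6 with the immediate early level as a covariate and 0 with the intermediate lobe level, where 633 had an unadjusted p under 0.05. The intermediate lobe level did not overlap between the genotypes, so fits with that covariate cannot tell it from the genotype. The replicate numbers were not taken as pairs, as deviations of same-numbered libraries correlated at 0.09, 0.06 and −0.02, under the 0.1 set for pairing. The same-numbered 200H library was still the best match for 200M replicates 1 and 2, and 200H replicate 2 for 200M replicate 3 (0.15). Low correlations cannot exclude a pairing. With the replicate block 20 genes were called, and 21 with the block and length correction. The cause of these shifts was not tested.

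The count of 0 genes whose difference depended on cohort became 10 with DESeq2, 158 with no filter and 5 with the replicate block within cohort. It was 0 to 22 with 1 library left out, highest without older 200H replicate 2. The median of genes raised in young 200M stayed at 0.109 to 0.141 with 1 library left out and was 0.066 with the intermediate lobe covariate. That of the lowered genes stayed at −0.115 to −0.081 and was −0.047 with the immediate early covariate. Of 340 values for the 18 called genes under alternatives 172 fell short of the threshold. Of 316 for 17 other named genes 17 newly passed it and 14 reversed. Those that newly passed included Pomc and Lhb with the replicate block (1.38 and −1.51) and without 200H replicate 2, Fshb without that library, and Tshb (1.05) without 200H replicates 1 and 2. Those reversed were Zeb2 (0.02) and Cga (0.17) without 200H replicates 1 and 2, Prl (0.16) and Esrp1 (0.05) with the intermediate lobe covariate, Tshb (−0.00) with the immediate early covariate, and Rab25 without 200M replicate 2 (−0.07, with single libraries left out −0.07 to 0.20). Gh gave −0.06 with the replicate block, −0.05 without 200H replicate 4, −0.12 without 200M replicate 3 (range −0.12 to 0.18) and −0.01 with the immediate early covariate. Rest gave −0.12 and −0.03 without 200H replicate 1 or 3 (range −0.12 to 0.18), and −0.18 and −0.39 with the immediate early and intermediate lobe covariates.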
